A study of Mus musculus and Acomys cahirinus with 25 samples.

Results

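The 9 imprinted growth genes H19, Igf2, Meg3, Dlk1, Mest, Peg3, Plagl1, Cdkn1c and Grb10 were followed in skin wounds of the laboratory mouse and the African spiny mouse. They were chosen by symbol, and each had a row among the 24500 gene rows of all 25 libraries. Levels are counts per 1000000 reads on genes (CPM). In a comparison, a gene was called higher or lower when the Benjamini-Hochberg adjusted p of edgeR's quasi-likelihood test, taken over all genes tested, was under 0.05.

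Bulk RNA-seq was made from epidermis and dermis of wounds in which new hair follicles form, at the wound center in the laboratory mouse and across the wound in the spiny mouse. The 13 laboratory mouse libraries were all from post-wound day 14 (PWD14), of mice wounded at 4 weeks of age. The study's main strain was C57BL/6J; the labels give no strain. The laboratory mouse libraries comprised 2 of wild-type center epidermis, 2 of wild-type margin epidermis, 5 of wild-type center dermis, 2 of wild-type margin dermis and 2 of center dermis labelled KO. The 12 spiny mouse (Acomys cahirinus, wounded at 8 weeks of age) libraries were all wild type. They covered unwounded skin (PWD0) and PWD14, PWD21 and PWD28, with 1, 2, 2 and 1 libraries of epidermis and 2, 1, 2 and 1 libraries of dermis. The KO mice were K14-Cre-Twist1 mice, with wild-type Twist1+/+ mice as their controls. K14-Cre acts in keratinocytes, so the level of Twist1 in dermis, from 44.0 to 73.4 CPM in the KO libraries and from 36.3 to 104.6 CPM in the 3 wild-type center libraries of the same set, does not check the deletion. The laboratory mouse center was a punch from the middle of the wound and the margin was all that remained of it. No unwounded laboratory mouse skin was analysed here, and no spiny mouse wound was divided into center and margin.

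An imprinted gene is transcribed mainly from the copy inherited from 1 parent. Igf2, Mest, Peg3 and Plagl1 are expressed from the paternal copy in most fetal tissues, Dlk1 likewise, and H19, Meg3 and Cdkn1c from the maternal copy, while Grb10 is maternal in most tissues and paternal in neurons. Many of these genes are abundant in fetal and placental tissue, decline after birth and act on growth: Igf2 is a fetal growth factor, Cdkn1c is an inhibitor of cyclin-dependent kinases, and Grb10 is an adaptor that restrains insulin and IGF receptor signaling. The libraries give total transcript levels and not which parental copy was read.

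On the mouse genome (GRCm38, mm10) the 9 genes lie at 7 places. H19 (chr7:142575530-142578146), a long non-coding RNA, and Igf2 (chr7:142650768-142666816) are 72.6 kb apart on the minus strand. Cdkn1c (chr7:143458339-143461059) lies near them, and Peg3 (chr7:6703892-6730462), which encodes a zinc finger protein, is at the other end of chromosome 7. Dlk1 (chr12:109452485-109463336), a membrane protein related to Notch ligands, and Meg3 (chr12:109540996-109571729), a long non-coding RNA, are 77.7 kb apart on chromosome 12. Mest (chr6:30733506-30748466) encodes a hydrolase-like protein, Plagl1 (chr10:13090832-13131694) a zinc finger transcription factor, and Grb10 is at chr11:11930499-12037428.

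H19 is the host of miR-675, whose mature forms are shown with the seed, bases 2 to 8, in capitals (RefSeq, GRCm38.p6). The libraries were made from poly(A) RNA, and the row of the miR-675 gene held 0 counts over all 25 libraries, so the values below are those of the host transcript only.
mmu-miR-675-5p: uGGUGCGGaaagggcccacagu
mmu-miR-675-3p: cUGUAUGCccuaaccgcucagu

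RefSeq promoters were at hand for 7 of the 9 genes. The 250 bases before a start are shown for the 4 of them that were higher in the spiny mouse wound dermis at PWD21 and so moved together, Meg3 (chr12:109540746-109540995), Mest (the second start, chr6:30737800-30738049), Peg3 (chr7:6730420-6730669, minus strand) and Grb10 (chr11:12037421-12037670, minus strand). They are mouse sequences, not spiny mouse sequences, each read 5′ to 3′ on the strand of the gene. Capitals mark TGCCGC or its reverse complement GCGGCA, the core of the motif bound by ZFP57 when methylated.
Meg3: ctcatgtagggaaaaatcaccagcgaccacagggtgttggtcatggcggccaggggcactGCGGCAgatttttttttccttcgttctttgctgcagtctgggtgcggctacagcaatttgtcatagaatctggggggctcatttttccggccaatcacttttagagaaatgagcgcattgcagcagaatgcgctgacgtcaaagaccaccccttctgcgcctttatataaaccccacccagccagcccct
Mest: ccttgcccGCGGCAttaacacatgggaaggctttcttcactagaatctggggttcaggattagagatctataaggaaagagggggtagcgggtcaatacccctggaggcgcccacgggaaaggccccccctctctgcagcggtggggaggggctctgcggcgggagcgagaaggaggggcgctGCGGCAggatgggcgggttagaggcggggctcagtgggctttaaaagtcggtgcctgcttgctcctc
Peg3: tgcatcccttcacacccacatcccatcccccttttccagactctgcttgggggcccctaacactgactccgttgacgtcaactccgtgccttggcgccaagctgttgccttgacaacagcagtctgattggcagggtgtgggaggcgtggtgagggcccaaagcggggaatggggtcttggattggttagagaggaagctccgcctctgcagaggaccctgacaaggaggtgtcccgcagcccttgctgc
Grb10: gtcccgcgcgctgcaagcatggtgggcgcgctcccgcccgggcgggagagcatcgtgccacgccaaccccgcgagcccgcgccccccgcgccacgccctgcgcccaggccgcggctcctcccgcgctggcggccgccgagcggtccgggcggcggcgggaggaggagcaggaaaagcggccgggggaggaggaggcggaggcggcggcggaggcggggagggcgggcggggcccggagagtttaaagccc
The 6 letters occurred on either strand 1 time in the Meg3 window and 2 times in the Mest window and not in the other two. Windows of other starts, not shown, held none in Mest (chr6:30733256-30733505), Meg3 (chr12:109545148-109545397) and Grb10 (chr11:12027972-12028221). In all, 4 of the 14 windows of the 7 genes held the letters, 2 of them at Mest starts 3 bases apart, beside 8.68% of the 32851 promoter windows of this length. CG dinucleotides numbered 10 in Meg3, 14 in Mest, 8 in Peg3 and 40 in Grb10, against a median of 6 over all windows.

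Reads on genes ranged from 19413261 to 86532134 in the laboratory mouse libraries and from 5669760 to 34751956 in the spiny mouse libraries, so that 3 counts correspond to 0.0347 to 0.154 CPM and 0.0863 to 0.529 CPM. Spiny mouse reads had been aligned to the mouse genome, and 24.4 to 52.9% of them fell on genes. Levels are therefore set side by side within a species only. In the laboratory mouse, epidermis was read paired-end and dermis single-end, so tissue and read type cannot be told apart there. In the non-stranded spiny mouse libraries, reads of Igf2 and Peg3 cannot be told apart from those of the antisense genes Igf2os and Peg3os. Counting intervals cover counting error only, and p-values measure the spread between these libraries, which the study describes as independent but which no label ties to single animals.

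In spiny mouse dermis, 6 of the 9 genes were higher at PWD21 than in unwounded skin. H19 and Peg3 rose most, 48.3-fold and 39.7-fold between mean levels, followed by Mest, Grb10 and Meg3 with 8.08-fold, 6.31-fold and 5.44-fold and Cdkn1c with 2.77-fold. The growth factor Igf2 was not among them, and none of the 9 was called lower. Of the 14481 genes tested, 12% were called higher at the same threshold, and all 9 genes passed the filter on low counts. The groups did not overlap for 8 of the 9, Igf2 being the exception, and for 67.7% of all genes tested. The 2 unwounded libraries had 5669760 and 6804714 reads on genes, 27.0 and 32.8% of their reads. The PWD21 libraries had 21927269 and 34751956, which were 44.9 and 52.9%. The part of depth and alignment in this comparison was not tested.

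H19 stood at 20.3 and 42.9 CPM in the 2 unwounded dermis libraries, at 1159 CPM on PWD14, at 1824 and 1231 CPM on PWD21 and at 115 CPM on PWD28. Every wound library was above both unwounded libraries, and the PWD28 library was far below the 3 earlier wound libraries. The log2 fold change of PWD21 against PWD0 was 5.52 ± 0.47 (SE, adjusted p = 0.000331).

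Igf2 followed another course. It was at 64.9 and 82.4 CPM at PWD0, 166 CPM at PWD14 (95% Poisson interval 160 to 172), 103 and 62.2 CPM at PWD21 and 35.7 CPM at PWD28 (32.1 to 39.5). The PWD21 and PWD0 libraries overlapped, with a log2 fold change of 0.06 ± 0.30 (adjusted p = 0.900), which turned to −0.29 without PWD21 replicate 1. The ratio of H19 to Igf2 counts, which is not per length and can be read only for its change, was 0.312 and 0.520 in unwounded dermis and 6.98 in the PWD14 library. It reached 17.7 and 19.8 by PWD21 and was 3.22 in the PWD28 library. The ratio was above both unwounded values in all 4 wound libraries.

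On chromosome 12, Meg3 was at 4.59 and 16.02 CPM at PWD0, 84.9 CPM at PWD14, 64.8 and 47.4 CPM at PWD21 and 23.2 CPM at PWD28. All 4 wound libraries were above the unwounded ones. The log2 fold change at PWD21 was 2.39 ± 0.48 (adjusted p = 0.00937), and it lost the call without PWD21 replicate 1 (adjusted p = 0.0556). Dlk1 was barely detected, with 4 and 5 counts in the PWD0 libraries (0.706 and 0.735 CPM) and 30 and 73 counts at PWD21 (1.37 and 2.10 CPM), and its log2 fold change was 1.18 ± 0.72 (adjusted p = 0.252).

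Mest, which encodes the hydrolase-like protein, had its highest values at PWD21. It was at 9.70 and 13.8 CPM at PWD0, 29.6 CPM at PWD14, 120 and 69.6 CPM at PWD21 and 44.5 CPM at PWD28. Both PWD21 libraries lay above all others, and the log2 fold change against PWD0 was 2.91 ± 0.35 (adjusted p = 0.00103). Peg3 rested on 8 and 10 counts at PWD0 (1.41 and 1.47 CPM) and was at 22.0 CPM at PWD14, 63.0 and 51.3 CPM at PWD21 and 10.1 CPM at PWD28 (8.29 to 12.3). Its log2 fold change at PWD21 was 5.20 ± 0.37 (adjusted p = 0.000197), and no wound library overlapped the unwounded ones. The transcription factor Plagl1 was at 6.70 and 18.4 CPM at PWD0, 11.5 CPM at PWD14, 31.3 and 24.6 CPM at PWD21 and 23.6 CPM at PWD28. Its PWD14 library lay between the unwounded ones, and the log2 fold change at PWD21, 1.09 ± 0.42, did not pass (adjusted p = 0.0889) except without PWD0 replicate 2 (1.83, adjusted p = 0.00106).

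Of the 2 inhibitors of growth signaling, Cdkn1c had its highest level at PWD14 and Grb10 at PWD21. Cdkn1c, the cyclin-dependent kinase inhibitor, was at 72.3 and 65.0 CPM at PWD0, 629 CPM at PWD14 (618 to 641), 195 and 186 CPM at PWD21 and 149 CPM at PWD28. The PWD14 library was far above all others, and the log2 fold change at PWD21 was 1.35 ± 0.28 (adjusted p = 0.0105), which did not pass when either PWD21 library was left out (adjusted p = 0.0631 and 0.0647). Grb10 was at 95.8 and 68.8 CPM at PWD0, 455 CPM at PWD14, 540 and 499 CPM at PWD21 and 214 CPM at PWD28. Its PWD14 and PWD21 libraries lay well above the rest, with a log2 fold change at PWD21 of 2.52 ± 0.34 (adjusted p = 0.00179).

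**Figure D1:**
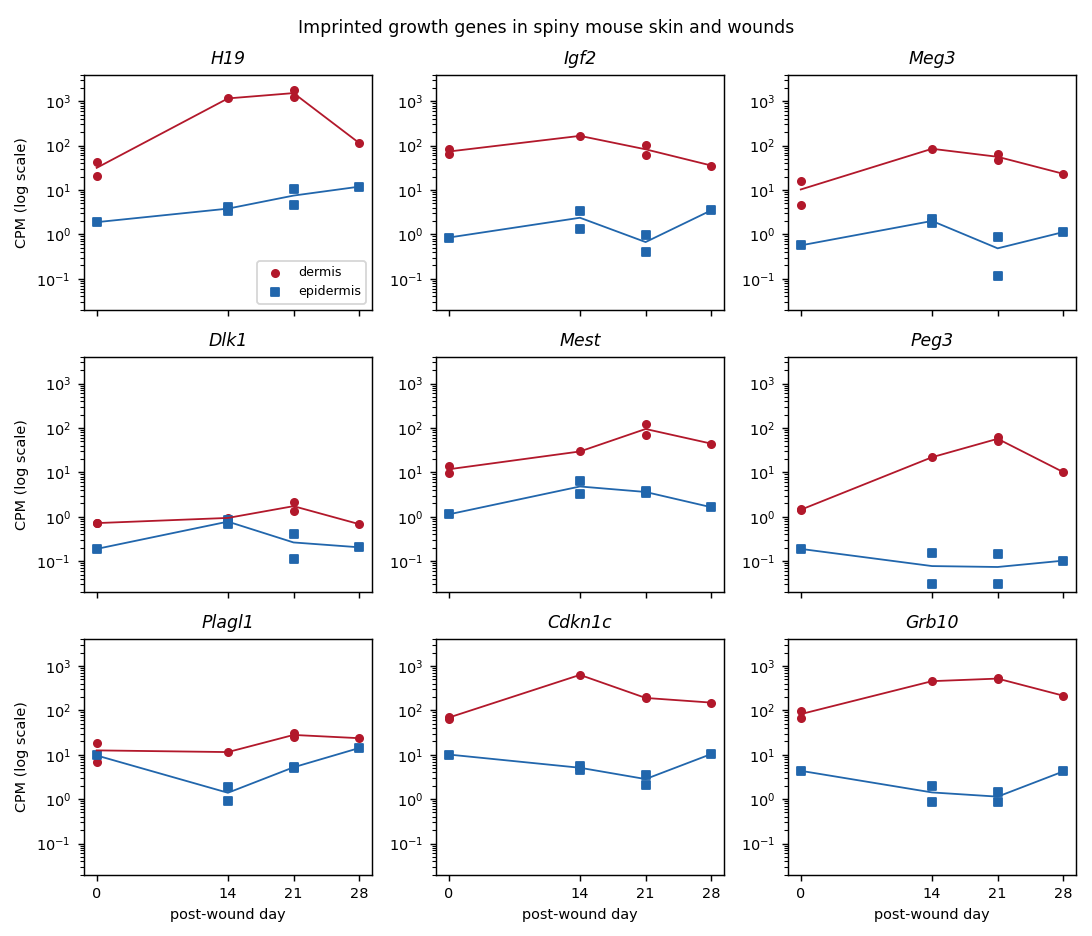
CPM (log axis) of each gene against post-wound day in spiny mouse dermis (red circles) and epidermis (blue squares), with 1 point per library and lines through the means; libraries with 0 counts are drawn at 0.03 CPM. In dermis, 6 of the genes had their highest mean at day 21 and the other 3, Igf2, Meg3 and Cdkn1c, at day 14, and the dermis means lay above the epidermis means on every day.

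PWD14 and PWD28 had 1 dermis library each and were tested in a fit of all 6 dermis libraries, so that the lone library was assumed to vary like the replicated days, against the same unwounded libraries as PWD21. At PWD14, 7 of the 9 genes were higher than at PWD0, where 7.95% of 15344 genes were called higher. These were H19 (log2 fold change 5.46 ± 0.49), Peg3 (4.15 ± 0.39), Cdkn1c (3.41 ± 0.34), Meg3 (3.32 ± 0.54), Grb10 (2.67 ± 0.38), Mest (1.57 ± 0.39) and Igf2 (1.41 ± 0.36), with adjusted p from 0.000522 to 0.0286. Igf2 and Mest did not pass when libraries were scaled by their totals alone (adjusted p = 0.0610 and 0.0542). Dlk1 and Plagl1 had log2 differences of 0.62 ± 0.91 and 0.14 ± 0.52.

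At PWD28 the called genes were Peg3 (2.56 ± 0.39, adjusted p = 0.0121) and Mest (1.68 ± 0.39, adjusted p = 0.0450), 2 of 9, against 2.58% of all genes called higher. Mest did not pass without either PWD21 library. Over fits with 1 library left out, the log2 difference ranged from 2.53 to 2.64 for Peg3 and from 1.549 to 1.885 for Mest. The log2 difference of H19 from PWD0 was 1.65 ± 0.46 (adjusted p = 0.0773), and that of Igf2 was −1.29 ± 0.39 (adjusted p = 0.0989). From PWD21 to PWD28 the mean level of H19 was 0.0752 and that of Peg3 0.178 of its PWD21 value, while Plagl1 and Cdkn1c kept 0.845 and 0.785 of theirs; this step was not tested.

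Genes that share functions or imprinting with the 9 moved in both directions. Of 55 other imprinted genes, 40 were tested at PWD21 against PWD0, 6 were higher and 7 lower, where 12% of all genes tested were called higher and 14.2% lower. Their median log2 fold change was −0.15, beside 2.39 for the 9 genes and 0.03 for all genes tested. Zim1, a zinc finger gene next to Peg3, was at 0 and 2 counts at PWD0 and at 158 and 147 counts at PWD21 (7.21 and 4.23 CPM). Nnat, which encodes neuronatin, rose from 73.5 and 54.2 CPM to 715 and 453 CPM (log2 fold change 3.05 ± 0.38, adjusted p = 0.00126). The imprinted genes Pon3, a paraoxonase (log2 fold change −3.91 ± 0.43), Slc22a18 (−3.35 ± 0.52) and Slc22a3 (−2.71 ± 0.69), both of transporter families, were lower, and Asb4 was at 20 and 21 counts at PWD0 and at 0 in both PWD21 libraries. Zim1 passed the filter on low counts only through PWD21 and Asb4 only through PWD0, which fixed their direction. The counts of higher and lower genes in this list include such genes.

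Among 25 partners of the 9 genes (receptors, binding proteins, kinases and the machinery of imprinting), 23 were tested at PWD21, 8 were higher and 1 lower, beside the same 12% and 14.2% of all genes, with a median of 0.47. Igf2bp3, which binds Igf2 mRNA and is mainly a fetal protein, rose from 1.94 and 1.62 CPM to 47.4 and 49.0 CPM (log2 fold change 4.65 ± 0.38, adjusted p = 0.000287). The scavenger receptor Igf2r was higher (1.36 ± 0.36), and so was the insulin receptor substrate Irs1 (1.34 ± 0.29). Igf1, the other ligand of the IGF1 receptor, was at 140 and 96.6 CPM at PWD0 and at 144 and 73.7 CPM at PWD21, in overlapping groups. The cyclin-dependent kinase inhibitor Cdkn1a was lower (−1.64 ± 0.35, adjusted p = 0.0117), in the opposite direction to Cdkn1c.

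Of 16 genes of fetal growth, 10 were tested, 4 were higher and 1 lower, again beside 12% and 14.2%, with a median of 1.03. Igf2bp2 and Igf2bp3, both called higher, are counted in this list and among the partners. Gpc3, a glypican that restrains growth in the fetus, went from 31.0 and 46.1 CPM at PWD0 to 963 CPM at PWD14, 3471 and 2314 CPM at PWD21 and 1739 CPM at PWD28 (PWD21 against PWD0, log2 fold change 6.13 ± 0.49, adjusted p = 0.000284). All wound libraries were above the unwounded ones, and the PWD28 library kept most of the PWD21 level, unlike that of H19. Igf2bp2 was higher (1.62 ± 0.43, adjusted p = 0.0271) and the chromatin protein gene Hmga1 lower (−2.19 ± 0.57, adjusted p = 0.0246). Hmga2 was near the detection floor, at 0.0975 to 1.06 CPM over the 6 libraries.

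**Figure D2:**
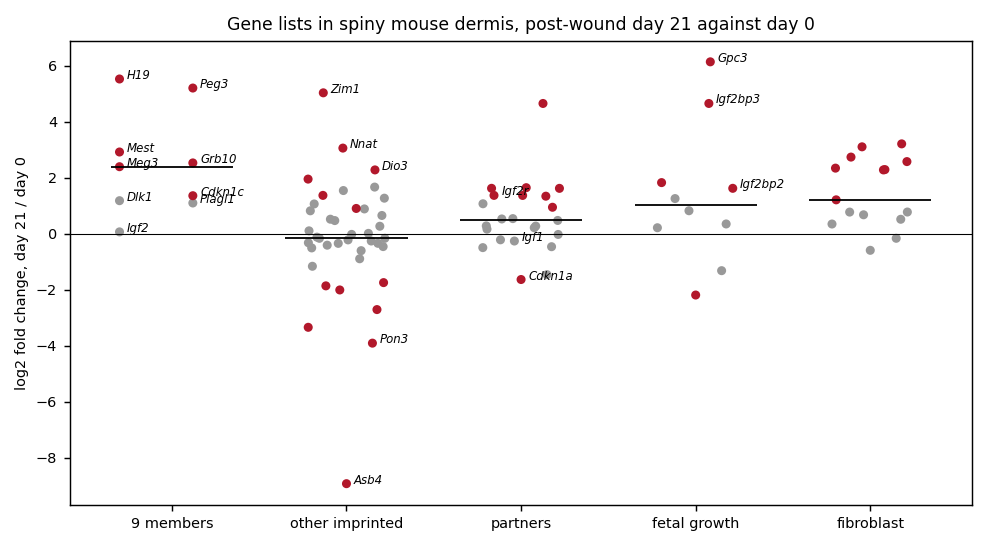
Log2 fold changes of spiny mouse dermis at PWD21 against PWD0 for the 9 imprinted growth genes and 4 other gene lists, 1 point per gene, red where called and grey otherwise, with a line at each median. Asb4, at 0 counts at PWD21, is drawn at its fitted value, which is no measured fold. The medians were 2.39 for the 9 genes, −0.15 for other imprinted genes, 0.47 for partners, 1.03 for fetal growth genes and 1.21 for fibroblast markers.

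Cell type markers also differed between the spiny mouse dermis libraries. The summed level of 15 fibroblast markers was 74377 and 106780 CPM at PWD0 and 107180 to 181620 CPM in the wounds, 1.83-fold higher at PWD21 between means. That of 14 keratinocyte markers was 9018 and 12860 CPM at PWD0 and 851 to 4928 CPM in the wounds. The 10 adipocyte markers, of which up to 4 were at 0 in a wound library, were at 1305 and 1347 CPM against 145 to 356 CPM, and the 15 skeletal muscle markers at 892 and 2145 CPM against 388 to 525.7 CPM. The 6 reticular fibroblast markers went the opposite way to the fibroblast list, with 1980 and 2085 CPM at PWD0 and 109 to 265 CPM in the wounds. Their median level was 33.7 and 35.1 CPM at PWD0 and 16.9 and 21.3 CPM at PWD21. In the laboratory mouse this list summed higher in center epidermis (1336 and 1404 CPM) than in wild-type center dermis (377 to 738 CPM). The 8 papillary fibroblast markers summed to 1037 and 1102 CPM at PWD0, 516 CPM at PWD14, 1309 and 1552 CPM at PWD21 and 1747 CPM at PWD28. The endothelial markers summed to 186 and 360 CPM at PWD0 and 489 to 826 CPM in the wounds. None of the defining markers of fibroblasts or keratinocytes was at 0. The 14 proliferation genes summed to 168 and 193 CPM at PWD0 and to 347 to 486 CPM in the wounds. Per 1000 CPM of fibroblast markers, H19 was at 0.383 at PWD0 (mean of 2) and 9.49 at PWD21, Peg3 at 0.0165 and 0.352, and Grb10 at 0.911 and 3.18. Cdkn1c was at 0.775 and 1.16 on this scale. In the PWD14 library, Igf2 (1.02) and Mest (0.181) lay within their PWD0 values, 0.608 to 1.11 and 0.0909 to 0.186. Fewer cells of a type and less RNA per cell cannot be told apart in bulk tissue, and the part of these shifts in the results was not tested.

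Over the 6 spiny mouse dermis libraries, the genes whose log2 levels were most like H19 were Casp12 (Pearson r = 0.998), Uggt2 (0.997) and Ncam1 (0.995), out of 11095 genes averaging 5 CPM or more. For Peg3 they were Gria4, Ptgfr and Trip13, and for Cdkn1c Grn, Arhgap18 and Amdhd2. Among the 9 genes, H19 was closest to Peg3 (r = 0.970), Grb10 (0.960) and Meg3 (0.949) and least like Igf2 (0.481). The libraries share day and depth, so these values only describe 6 points.

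In spiny mouse epidermis the 9 genes were low. At PWD21, where both tissues had 2 libraries, the 6 genes that passed the filter on low counts in both tissues were all higher in dermis than in epidermis, against 33.5% of 14966 genes called higher in dermis. Their log2 differences were 8.64 ± 0.35 for Grb10, 7.50 ± 0.52 for H19, 6.68 ± 0.45 for Igf2, 5.90 ± 0.33 for Cdkn1c, 4.57 ± 0.33 for Mest and 2.29 ± 0.25 for Plagl1, and the groups did not overlap, as was so for 82.3% of all genes tested. Peg3 (5 and 0 counts in epidermis), Meg3 (29 and 2) and Dlk1 (14 and 2) passed the filter only through dermis, where they were high, so their direction was fixed by it. Their levels in dermis were 63.0 and 51.3 CPM, 64.8 and 47.4 CPM, and 1.37 and 2.10 CPM, and the fitted difference of Peg3, 9.02 ± 0.54, ranged from 8.37 to 13.44 when 1 library was left out. The fibroblast marker sum was 84.5-fold higher in dermis between means. Of the other imprinted genes, 22 of 43 tested were higher in dermis and 9 lower, where 33.5% and 29.4% of all genes were. Dio3, the enzyme that inactivates thyroid hormone (23.9 against 0.0148 CPM), was among the higher, and Cobl, an actin nucleator (1.78 against 138 CPM), among the lower. Dio3 passed the filter only through dermis, which fixed its direction, and the counts of this list include such genes. Gpc3, of the fetal growth list and not of the imprinted ones, was also higher in dermis (2893 against 3.92 CPM).

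Within spiny mouse epidermis, 4 of 8 genes tested differed between PWD14 and PWD21, where 46.6% of 12889 genes were called in either direction. Of these, Cdkn1c and Plagl1 passed the filter on low counts at both days. Igf2 (32 and 7 counts at PWD21) and Meg3 (29 and 2) passed it only through PWD14, where they were high, so their direction was fixed by it. The same held for Dlk1 (14 and 2), which was tested and not called. Igf2 was at 3.41 and 1.34 CPM at PWD14 and at 0.946 and 0.400 CPM at PWD21 (log2 fold change 2.15 ± 0.62, adjusted p = 0.0145). Meg3 was at 2.17 and 1.85 CPM against 0.857 and 0.114 CPM (2.29 ± 0.63, adjusted p = 0.0122), and Cdkn1c at 4.49 and 5.68 CPM against 3.55 and 2.11 CPM (1.33 ± 0.37, adjusted p = 0.0129). Plagl1 went the other way, at 0.930 and 1.85 CPM against 5.29 and 5.14 CPM (−1.32 ± 0.43, adjusted p = 0.0250). The groups did not overlap for any of these 4 genes nor for 80.3% of all genes tested, and their levels rested on 2 to 179 counts. Under 8 alternatives with all libraries kept, Cdkn1c and Plagl1 each held the call in 7, with adjusted p up to 0.09295 and 0.0629. The log2 fold change of Cdkn1c was 0.784 at its lowest there. None of the 4 passed without PWD21 replicate 2 (adjusted p from 0.0665 to 0.109), Igf2 and Plagl1 did not pass without PWD14 replicate 1 (0.127 and 0.072), and Plagl1 did not pass without PWD21 replicate 1 (0.111). Igf1r, the receptor of IGF ligands, was higher at PWD14 (1.69 ± 0.34, adjusted p = 0.00223). Peg3, with 0 to 5 counts per library, was not tested. Unwounded epidermis and PWD28 had 1 library each, in which H19 was at 1.89 and 11.9 CPM, Plagl1 at 9.63 and 14.2 CPM and Cdkn1c at 10.1 and 10.4 CPM.

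In laboratory mouse dermis at PWD14 all 9 genes were detected in every library. Per kilobase of annotated exon in the 5 wild-type center libraries, H19 stood at 997 ± 386 CPM per kb (SD, n = 5), above Mest (84.6 ± 23.4), Cdkn1c (72.5 ± 23.7), Grb10 (52.7 ± 4.4), Meg3 (46.5 ± 22.8), Igf2 (23.2 ± 12.5), Peg3 (8.48 ± 3.38), Plagl1 (8.01 ± 3.22) and Dlk1 (2.58 ± 2.79). Each gene overlapped the next in this order, with the exception of H19, whose lowest library (473 CPM per kb) was above the highest for Mest (108 CPM per kb). Lengths were the union of all annotated exons, 18089 bases for Meg3 and 3945 for Mest, so the order below H19 depends on the annotation. Without length, Meg3 (mean 841.5 CPM) stood above Mest (333.7 CPM).

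The 5 wild-type center dermis libraries came in 2 sets, one of 3 named with the KO libraries and one of 2 named with the margin libraries. H19 was at 2620, 3124 and 3503 CPM in the first set and at 1164 and 1850 CPM in the second, Peg3 at 132 to 156 CPM and at 57.8 and 71.8 CPM, and Cdkn1c at 153 to 212 CPM and at 78.1 and 135 CPM. Meg3 ran the opposite way, with 446 to 626 CPM in the first set and 1281 and 1295 CPM in the second, and so did Plagl1, with 36.4 to 51.9 CPM and 74.1 and 101 CPM. Grb10 was at 423 to 495 CPM and at 508 and 517 CPM. The sets did not overlap for these 6 of the 9 genes, nor for 39.8% of the 13453 genes averaging 1 CPM or more, although the labels gave them the same tissue, region, genotype and day. The region and KO contrasts below were made within a set, whereas the contrast of tissues at the center pooled both.

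**Figure D3:**
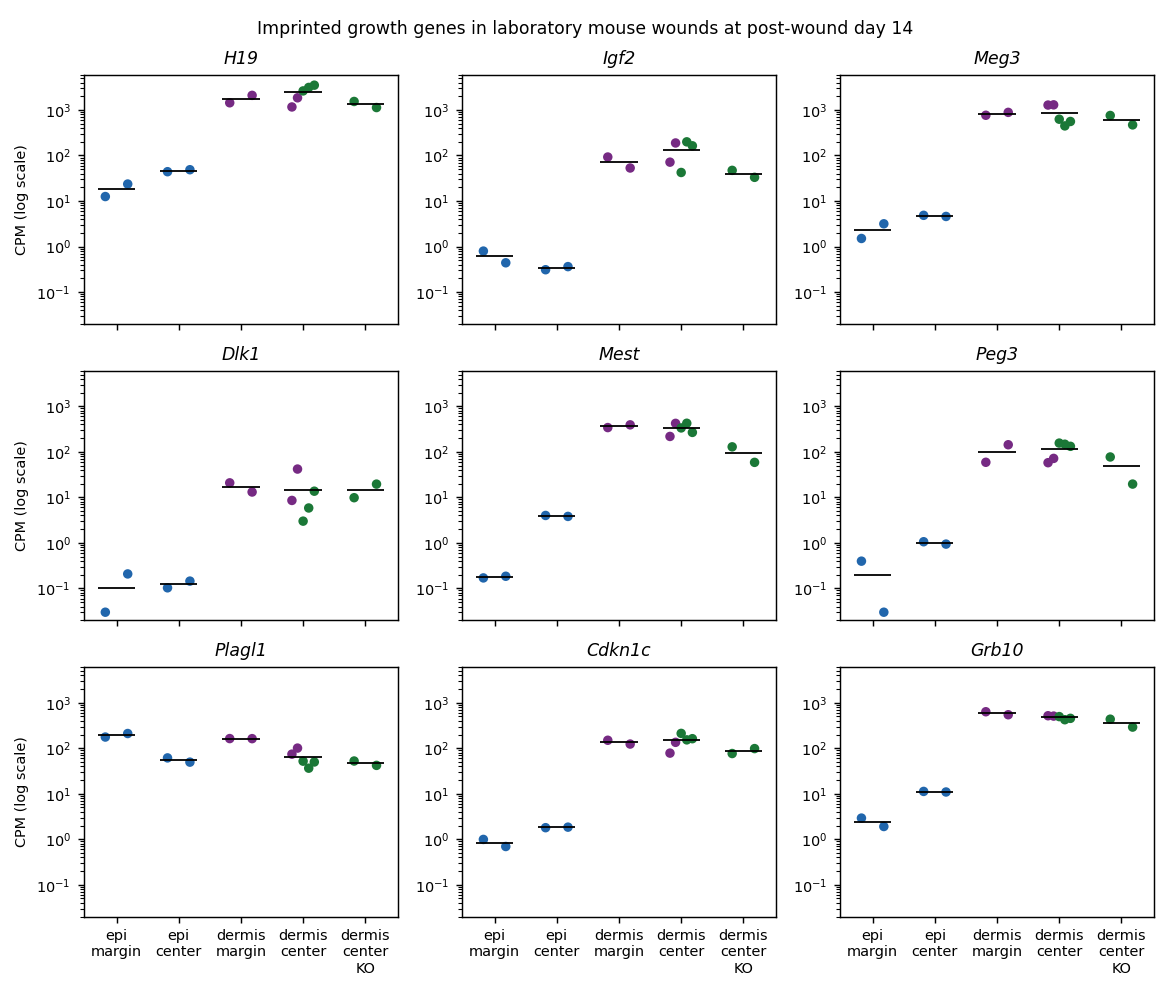
CPM (log axis) of each gene in the laboratory mouse libraries at PWD14, 1 point per library with a line at each group mean; blue is epidermis, purple the dermis set with margin libraries and green the dermis set with KO libraries, and 0 counts are drawn at 0.03 CPM. For 8 of the genes dermis lies far above epidermis, and Plagl1 is the exception.

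Between the wound center and margin of wild-type dermis, 0 of the 9 genes were called, where 0.85% of 14698 genes were, and 3 of the 9 had an unadjusted p under 0.05, as had 2329 of all 14698. DESeq2 and edgeR's likelihood ratio test each called 2, and the totals over all genes are given with the alternatives at the end. The groups did not overlap for Meg3, Plagl1 and Grb10, 3 of 9, against 45.3% of all genes. Meg3 was at 1281 and 1295 CPM at the center and 765 and 885 CPM at the margin (log2 fold change 0.74 ± 0.19, adjusted p = 0.119). Plagl1 was at 74.1 and 101 CPM against 163 and 162 CPM (−0.81 ± 0.21, adjusted p = 0.131). H19, at 1164 and 1850 CPM against 1437 and 2092 CPM, overlapped between the regions (−0.14 ± 0.25, adjusted p = 0.855), and Igf2 was at 71.3 and 188 CPM against 92.5 and 53.1 CPM (0.89 ± 0.40, adjusted p = 0.311). With all 5 center libraries the signs of H19, Dlk1, Mest, Peg3 and Cdkn1c turned, none of them called. The margin libraries held 2600 and 5020 CPM of keratinocyte markers and the center libraries of wild type 126 to 852 CPM, and the part of this in the comparison was not tested. Among other imprinted genes, partners and fetal growth genes, none of 43, 25 and 9 tested was called.

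Of the KO comparison, 0 of the 9 genes passed, where 0.0565% of 14163 genes were called, although 5 had an unadjusted p under 0.05, as had 1631 of all 14163, and all 5 had lower means in the KO. DESeq2 called 4 and the likelihood ratio test 1, and the totals over all genes are given with the alternatives at the end. Mest was at 129 and 58.8 CPM in the KO libraries and at 336, 425 and 267 CPM in the wild-type libraries of the same set, and these did not overlap (log2 fold change −1.85 ± 0.38, unadjusted p = 0.00125, adjusted p = 0.218). H19 was at 1536 and 1129 CPM against 2620, 3124 and 3503 CPM (−1.21 ± 0.33, adjusted p = 0.273), and Cdkn1c at 76.5 and 98.2 CPM against 212, 153 and 162 CPM (−1.02 ± 0.26, adjusted p = 0.270). Peg3 was at 77.2 and 19.6 CPM against 156, 147 and 132 CPM (−1.57 ± 0.50, adjusted p = 0.326). Groups of these 4 genes did not overlap, as was so for 29.4% of all genes tested. Igf2, at 47.1 and 33.1 CPM against 42.3, 199 and 163 CPM, overlapped (−1.74 ± 0.60, adjusted p = 0.350).

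Meg3 (log2 difference 0.18 ± 0.29), Plagl1 (0.03 ± 0.32), Dlk1 (0.95 ± 0.76) and Grb10 (−0.33 ± 0.26) overlapped between the genotypes. The median over the 9 genes was −1.02, beside −0.22 for other imprinted genes, −0.58 for fetal growth genes and −0.07 for all genes tested. KO replicate 2 carried 36463 CPM of keratinocyte markers, against 1181 CPM in KO replicate 1 and at most 852 CPM in wild-type center dermis, and fewer fibroblast marker reads, 95931 against 151090 CPM. The part of this in the result was not tested. Without KO replicate 1, which leaves replicate 2, the log2 fold changes were −1.50 for H19, −2.59 for Mest and −2.94 for Peg3. The smallest changes with any 1 library left out were −0.97, −1.37 and −0.876 for these genes. With all 5 wild-type libraries Mest was called (−1.79, adjusted p = 0.0412). Per 1000 CPM of fibroblast markers, Mest was at 0.613 and 0.853 in the KO libraries and at 1.18 to 3.31 in wild-type center dermis of both sets.

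In laboratory mouse epidermis, 2 of the 8 genes tested differed between wound center and margin, where 1.24% of 14165 genes were called in either direction. Mest was at 4.01 and 3.82 CPM (272 and 211 counts) at the center and at 0.170 and 0.185 CPM (6 and 16 counts) at the margin, 22.0-fold between means. The groups stood far apart, and the log2 fold change was 4.35 ± 0.60 (adjusted p = 0.0369). Plagl1 was at 61.3 and 49.5 CPM at the center and at 176 and 210 CPM at the margin (−1.90 ± 0.22, adjusted p = 0.0367), with both margin libraries far above the center ones.

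Grb10 was at 11.3 and 10.9 CPM against 2.92 and 1.91 CPM (2.18 ± 0.41, adjusted p = 0.0744), and H19 at 44.0 and 48.7 CPM against 12.5 and 23.6 CPM (1.25 ± 0.32, adjusted p = 0.117). Both were without overlap, as were all 8 genes tested and 59% of all genes. Peg3, Meg3 and Cdkn1c had higher means at the center and Igf2 a lower one, none with an adjusted p under 0.229. Of these, Peg3 (14 and 0 counts at the margin) passed the filter only through the center, which fixed its direction. The study lists Meg3 as upregulated in this comparison, at its own threshold of a p-value or false discovery rate under 0.05. Dlk1, with 0 to 18 counts, was not tested, and for its 0 in margin replicate 1 the limit of 3 counts is 0.085 CPM. The calls on Mest and Plagl1 were lost without either center library (adjusted p from 0.158 to 0.284) and under the older edgeR quasi-likelihood procedure (0.0909 and 0.0687), which called 0 genes in all. Over fits with 1 library left out, the log2 fold change ranged from 4.34 to 4.37 for Mest and from −2.04 to −1.77 for Plagl1. Axl, a receptor tyrosine kinase, was the only other imprinted gene called, at 84.2 and 82.5 CPM against 21.1 and 25.4 CPM (1.74 ± 0.21, adjusted p = 0.0369), and 0 of 24 partners and 0 of 10 fetal growth genes were.

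Fibroblast markers differed with the region in these epidermis libraries. Their sum was 5744 and 6937 CPM at the center and 963 and 2678 CPM at the margin, 3.48-fold between means, with 14 of 15 markers tested on the higher side, and 10 of 10 endothelial markers were on that side too. Per 1000 CPM of fibroblast markers, Mest was at 0.577 and 0.665 at the center and at 0.0635 and 0.192 at the margin, against 1.18 to 3.31 in wild-type center dermis. For H19 the same ratio overlapped, at 6.35 and 8.47 against 4.68 and 24.5, and so did that of Grb10, at 1.62 and 1.90 against 1.09 and 1.98. The part of these markers in the result was not tested.

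Whether the center-to-margin difference itself differed between the tissues was tested as an interaction over 8 libraries. It did for 2 of the 9 genes, Mest (4.59 ± 0.59 on the log2 scale, adjusted p = 0.00198) and Grb10 (2.42 ± 0.39, adjusted p = 0.00733), where 3.34% of 15531 genes were called in the same direction. For both genes the center was above the margin in epidermis, while in dermis the log2 differences were −0.12 and −0.11. Grb10 did not pass without dermis margin replicate 1 (adjusted p = 0.0526). The median over all genes was 0.31, so these values stood against a general shift of that size. Cell type markers were called in the same direction too, among them the fibroblast markers Pdgfrb (3.12 ± 0.46) and Fbn1 (2.89 ± 0.53) and the endothelial marker Kdr (6.64 ± 1.03). The fibroblast markers Thy1 (−0.82 ± 0.34) and Vim (−0.33 ± 0.46) went the other way and were not called. Keratinocyte markers were also called in the same direction as Mest, among them Krt15 (5.03 ± 0.69) and Dsg1a (5.08 ± 0.76). Itga6 (−0.28 ± 0.37), of the keratinocyte list, went the other way and was not called. The part of cell types in the interaction was not tested.

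Between the tissues of the laboratory mouse, 8 of 9 genes were higher in dermis at the wound center, where 25% of 15017 genes were called higher in dermis. Of these, Igf2 and Dlk1 passed the filter there only through dermis, which fixed their direction. Among the others higher in dermis, the log2 differences ran from 4.71 ± 0.23 for Grb10 and 5.01 ± 0.58 for H19 to 6.75 ± 0.62 for Meg3. The fitted difference of Igf2 was 7.89 ± 0.83. The fit pooled both sets of dermis libraries. Calls on the higher genes that passed the filter in both tissues held under every alternative in which the gene was tested, with 4.23 to 5.73 for H19. At the margin the same 8 genes were higher, against 26.8% of 14964 genes, with 5.77 ± 0.50 for H19 and 6.20 ± 0.60 for Igf2. Of these, Mest (6 and 16 counts in margin epidermis), Peg3 (14 and 0) and Dlk1 (0 and 18) passed the filter only through dermis, which fixed their direction, and the other 5 passed it in both tissues. Plagl1, which was called in the other direction at the margin, stood apart (20.9% of genes were called lower there). At the center it was at 36.4 to 101 CPM in dermis and 49.5 and 61.3 CPM in epidermis (−0.55 ± 0.33, adjusted p = 0.185). It was called lower with the first set of dermis libraries only (−0.95, adjusted p = 0.00590) and without wild-type center dermis replicate 2 (−0.76, adjusted p = 0.0493). At the margin it was lower in dermis, at 163 and 162 CPM against 176 and 210 CPM (−1.08 ± 0.30, adjusted p = 0.0137), a call that was lost when libraries were scaled by their totals alone (−0.25, adjusted p = 0.472) and without either dermis library (adjusted p = 0.131 and 0.182).

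**Figure D4:**
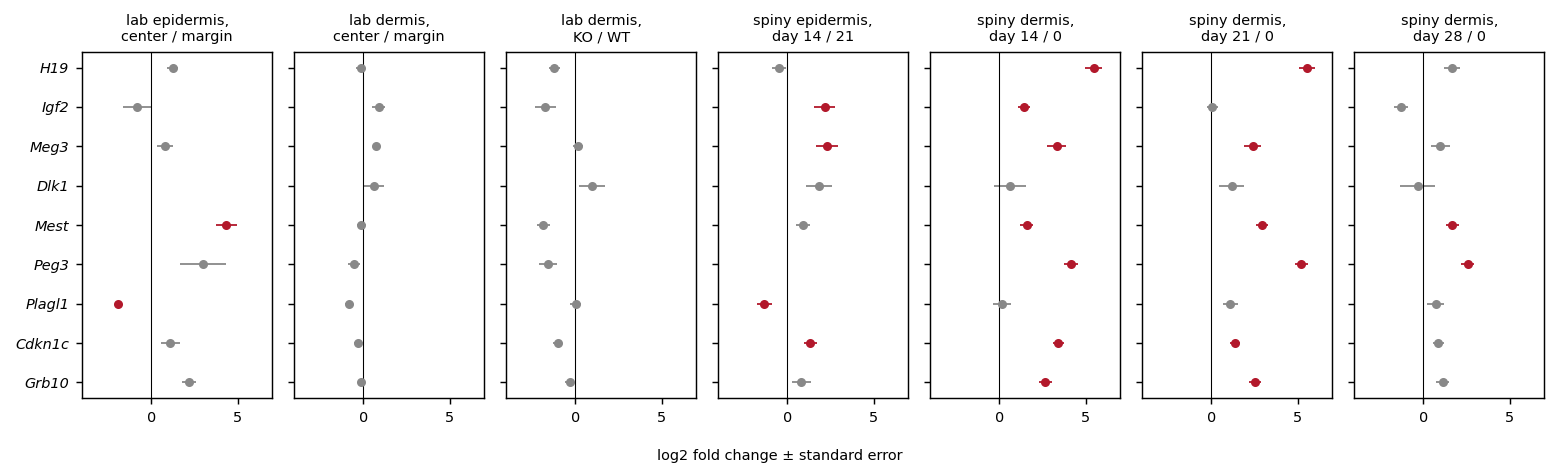
Log2 fold changes with standard errors for the 9 genes in 7 comparisons, red where called and grey otherwise; a missing point was not tested. The spiny mouse dermis panels of day 14 and day 21 against day 0 hold 7 and 6 called genes, and the laboratory mouse dermis panels hold 0.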

How the data were processed

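The deposited files hold raw read counts per gene, made by the authors, 1 file per library. Per the submitters' processing notes these came from STAR 2.4.1d (the study's methods name another version), htseq-count (HTSeq 0.6.0) and the mm10 genome, and the count option for strand is not given in the sources used here. Each file ends in 5 summary lines, which were left out of totals and tests. TRIzol is named for extraction in the labels and a column kit in the methods. For the spiny mouse, days follow the labels, and the supplement lists somewhat different ones.

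Levels are CPM of all 24500 gene rows. Comparisons used edgeR 4.0.16 (R 4.3.3) on the deposited counts, with TMM factors, filterByExpr at its defaults, glmQLFit and glmQLFTest and Benjamini-Hochberg adjustment over all genes tested, and standard errors came from dividing each log2 fold change by the square root of its F. Alternatives were library size alone, a minimum of 10 counts in every library, other filters and fits, DESeq2 1.42.0, edgeR's likelihood ratio test and leaving out each library; edgeR 3's quasi-likelihood procedure was added after the data were seen. The scripts were tested on simulated data. Libraries were grouped by label, and the sets of wild-type center dermis were read from library names in the supplement. Intervals are exact Poisson intervals of 95%. Sequences and positions are from RefSeq and exon lengths from GENCODE.

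The 9 genes and the lists were chosen with earlier results of these data known. All 9 are given in every comparison. From the lists of other imprinted genes, partners and fetal growth genes, names come from up to 4 called genes in each direction with the largest change among those whose groups did not overlap, and likeness was ranked for members called in a dermis comparison. Igf1, Hmga2 and Twist1 were named outside this rule, after their values were seen.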

Additional observations from a re-analysis of the deposited data

Results flagged for a closer look

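Dlk1 in the 5 wild-type center dermis libraries was at 3.01, 5.85, 8.56, 13.7 and 41.9 CPM, and the highest of them stood apart, with a gap to the next of 0.726 of the whole range (Dixon's critical ratio for 5 samples is 0.71). The 5 libraries came from both sets, and the high one was of the second, with 8.56 and 41.9 CPM. None of the other 8 genes had such a library in this group, and about 1 group in 20 is flagged by chance.

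The center-to-margin difference of Mest was 4.59 greater on the log2 scale in laboratory mouse epidermis than in dermis, and that of Grb10 was 2.42 greater, both by the test of the interaction.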

How the results depend on the processing

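Of 1205 values of the 9 genes under the alternatives, 1112 kept direction and side of the threshold, 26 lost the call, 42 gained one and 25 changed sign, none of the latter for a called gene; the causes were not tested. No paired analysis was possible because the labels carry no replicate numbers.

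Under DESeq2 the genes called were 1511 for epidermis center against margin, 738 for dermis, 787 for the KO, 1715 for PWD28 and 1125 for the interaction, with 4, 2, 4, 4 and 4 of the 9 genes. Under the likelihood ratio test they were 1533, 886 and 214 for the first 3, with 4, 2 and 1 of the 9, and 4291 for PWD14, 2031 for PWD28 and 1485 for the interaction. Under edgeR 3's quasi-likelihood they were 0, 54 and 2 for the first 3, with 0 of the 9 in epidermis. With at least 10 counts in every library, 1 of the 9 genes was called in laboratory mouse epidermis, 2 in spiny mouse epidermis, 5 of 5 tested between spiny mouse tissues and 1 of the 9 in the interaction, where 204 genes were called, and 0 genes in the KO. With library size alone 4 of the 9 were called at PWD28. With all 5 wild-type center libraries, 323 genes were called for dermis regions and 190 for the KO, with 1 of the 9 there, and in a fit of all 9 dermis libraries 5 and 75.

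Leaving out 1 library, the genes called ranged from 70 to 7405 for laboratory mouse epidermis (0 to 5 of the 9), 19 to 241 for dermis regions, 1 to 3353 for the KO (0 to 3 of the 9), 3470 to 6635 for spiny mouse epidermis (0 to 5 of the 9), 1311 to 5118 for PWD21, 1888 to 4219 for PWD14, 452 to 3192 for PWD28 (1 to 6 of the 9), 5054 to 7885 and 4508 to 7623 between laboratory mouse tissues at center and margin, and 167 to 1343 for the interaction (1 to 3 of the 9).

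Signs changed, with no call, for dermis center against margin when all 5 center libraries were used, in H19 (0.67), Dlk1 (−0.12), Mest (0.034), Peg3 (0.37) and Cdkn1c (0.29). With 1 library fewer the same comparison ranged from −0.46 to 0.13 for H19, −0.87 to 1.35 for Dlk1, −0.62 to 0.26 for Mest, −1.02 to 0.18 for Peg3, −0.68 to 0.030 for Cdkn1c and −0.25 to 0.044 for Grb10. In the KO, Meg3 was −0.41 and Plagl1 −0.37 with all 5 wild-type libraries, and the ranges were −0.26 to 0.51 and −0.19 to 0.21. Ranges over 0 were also −0.91 to 0.26 for H19 in spiny mouse epidermis, −0.29 to 0.37 for Igf2 at PWD21, −0.34 to 0.95 for Plagl1 at PWD14, and −0.080 to 0.92 for Meg3 and −1.67 to 4.88 for Dlk1 in the interaction. With library size alone Plagl1 was −0.13 at PWD14 and 0.18 between laboratory mouse tissues at the center.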
